A study of Mus musculus with 4 samples.

Results

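The cells described here were 796 single cells of a mouse myogenic progenitor culture (MPC) that expressed Pax7, lacked transcripts of the differentiation factor Myog and held few transcripts of dividing cells. They were chosen from measured counts of unique molecular identifiers (UMIs, each standing for 1 captured RNA molecule). Of the 11847 deposited MPC barcodes, 9349 passed the limits of 5000 or more UMIs, 500 or more genes and a mitochondrial share of up to 10%. The 934 cells with the highest share of Rgs5, a mural cell gene, were left out, and so were 491 further cells with 10 or more UMIs of Crabp1, a retinoic acid binding protein found in part of the mesenchyme. The left-out cells were not free of Pax7. With each cell thinned at random to 5000 UMIs, 93.3% of the 934 and 50.7% of the 491 held a Pax7 UMI. The smallest Rgs5 count among the 934 was 1 UMI. Of the 7924 cells left, 3842 had no Myog UMI, and 3626 of these had at least 3 Pax7 UMIs. The 796 cells with at most 1 UMI in all of Mki67, Top2a, Cenpf, Cdk1 and Ccnb1, which are genes of mitosis and its preparation (G2/M), were 21.95% of the 3626 and 8.51% of the kept MPC cells (exact binomial 95% interval 7.96 to 9.10%). They were compared with the 2413 cells of the same Pax7 and Myog counts that had 5 or more UMIs of the 5 genes, called cycling cells below. The 417 cells with 2 to 4 UMIs formed an intermediate set, and the 4 libraries together held 19126 kept cells.

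The MPC library came from cells of a male Pax7-nGFP mouse aged 16 weeks, a reporter strain in which Pax7 regulatory DNA drives a nuclear green fluorescent protein. They were passaged 2 times as myoblasts and then 5 times in a medium with Forskolin at 5 µM, which raises cyclic AMP, Repsox at 5 µM, which blocks the TGF-beta type I receptor, and CHIR at 3 µM, which inhibits GSK3 and activates Wnt signalling. The myoblast library was a culture at passage 2, likewise from a male mouse of 16 weeks that carried the reporter. The fiSC library held satellite cells taken fresh from muscle, sorted for GFP from the limbs of 3 pooled reporter males aged 13 weeks. The ASC library held satellite cells activated by injury, sorted for GFP 3 days after 10 µM cardiotoxin was given, from 17 tibialis anterior muscles of reporter mice aged 18 to 24 weeks. The cultures were not sorted. Each group was 1 library, so no comparison below has a test, and library, animal, batch and group cannot be told apart. The kept cells numbered 2218 for myoblast, 1873 for fiSC and 5686 for ASC, and the libraries held 21434933 to 199488336 deposited UMIs. MPC barcodes also found in another library numbered 164 in myoblast, 7 in fiSC and 27 in ASC, and the chosen cells shared 0, 0 and 2 with the kept cells of these libraries in that order.

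Satellite cells are the stem cells of skeletal muscle. Pax7, a paired-box transcription factor, marks them, and Notch signals from neighbouring cells, read out by the repressors Heyl, Hey1 and Hes1, hold them in quiescence and out of differentiation. A cell that divides first loads replication proteins such as the Mcm helicase under control of E2F factors, copies its DNA together with new histones in S phase, and then makes the G2/M proteins that carry it through mitosis. A low G2/M count is therefore shared by resting cells, by cells in G1 and by cells early in S phase.

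Transcripts of DNA replication were frequent in the chosen cells, so the counts go against the description "non-cycling" for part of them, and they are called G2/M-low Pax7-positive MPC cells, or G2/M-low cells, below. With every cell thinned at random to 5000 UMIs, the 28 genes of a DNA replication and S phase list had a median of 7 UMIs per G2/M-low cell, 11 per intermediate cell and 12 per cycling cell of the same library. The median was 14 UMIs before thinning in G2/M-low cells and 39 in cycling cells, whose median totals were 9586 and 14536 UMIs. In the other libraries the same Pax7, Myog and G2/M limits were applied, but no Rgs5 or Crabp1 cells were left out. These sets had a median of 2 such UMIs in 433 myoblasts, 1 in 1364 fiSC and 2 in 52 ASC. The limit of 1 G2/M UMI is stricter for deeper cells, and these myoblasts had a median total of 20721 UMIs. The part of depth in these differences was not tested. At least 12 S phase UMIs were found in 28.1% of G2/M-low MPC cells (25.04 to 31.4%), 54.0% of cycling MPC cells (52.0 to 56.0%), 2.54% of G2/M-low myoblasts (1.27 to 4.50%) and 0.147% of G2/M-low fiSC (0.018 to 0.529%). At most 1 was found in 7.04% of G2/M-low MPC cells, against 0.995% of cycling MPC cells, 35.6% of G2/M-low myoblasts and 55.4% of G2/M-low fiSC. The G2/M-low cells of the MPC culture thus lay between its cycling cells and the G2/M-low cells of the other libraries in S phase transcripts. Myog-positive cells of the MPC library (3 or more UMIs) had a median of 5.

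**Figure D1:**
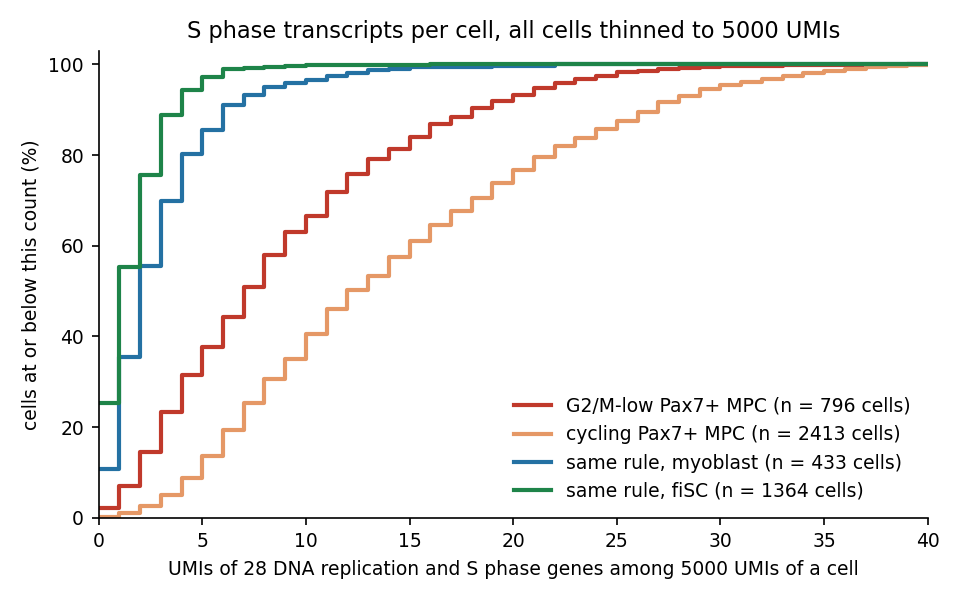
The cumulative share of cells (%, vertical axis) is drawn against the UMIs of 28 DNA replication and S phase genes among 5000 UMIs of a cell (horizontal axis). Curves are for G2/M-low Pax7-positive MPC cells, cycling Pax7-positive MPC cells, and cells of the same Pax7, Myog and G2/M limits in the myoblast and fiSC libraries. The curve of G2/M-low MPC cells (median 7) lies between those of cycling MPC cells (median 12) and of the myoblasts (median 2) and fiSC (median 1).

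The rule sorted a continuum. Of the G2/M-low cells, 446 had no UMI of the 5 genes and 350 had 1. Just outside stood 201 cells with 2, and just inside the cycling set 78 cells with 5, while 2077 cycling cells had 10 or more. Exactly 3 Pax7 UMIs were found in 48 G2/M-low cells, and 40 more cells would have entered with 2. A further 158 cells met the Pax7 and G2/M limits but had 1 Myog UMI. A G2/M-low cell held 3 to 52 Pax7 UMIs (median 9), Its median number of genes was 3198 and its median mitochondrial share 3.37%.

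Levels below are in CPM (a gene's UMIs in all cells of a set, scaled so that the set's total is 1000000). The G2/M-low cells had 7935284 UMIs in all, and exact Poisson intervals (95%) cover counting error only. Log2 ratios were taken after adding 5 CPM to both sides. A gene was measured at 10 CPM in at least 1 of the sets compared, and was called higher or lower at a ratio of at least 2-fold.

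The levels of the 12 measured of 14 myogenic progenitor markers, and of the 16 measured of 25 Notch pathway genes, differed by less than 2-fold between G2/M-low and cycling Pax7-positive MPC cells. Pax7, which the rule used, had 1059 CPM (1037 to 1082) in G2/M-low cells and 996 CPM (986 to 1006) in cycling cells. Heyl had 94.0 CPM (87.4 to 101.0) in G2/M-low cells and 98.7 CPM (95.6 to 102) in cycling cells, and the receptor gene Notch3 had 229 CPM (219 to 240) and 253 CPM (248 to 258). Hey1 stood at 48.0 against 49.1 CPM, Hes1 at 283 against 266 CPM and Notch1 at 155 against 159 CPM, with the G2/M-low cells given first. These intervals overlap for Heyl and lie apart for Pax7 and Notch3. Col15a1, a basement membrane collagen of satellite cells, had 311 CPM in G2/M-low cells and 269 CPM in cycling cells. The reporter transcript EGFP had 82.3 CPM in G2/M-low cells and 86.7 CPM in cycling cells.

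Between these sets 15 of 8987 measured genes were higher in the G2/M-low cells (0.167%) and 286 were lower (3.18%), with a median log2 ratio of -0.06 over all measured genes. Since the rule parted the sets by G2/M counts, the lower genes describe the choice and are no finding. All 24 other G2/M genes on the list were lower (median log2 ratio -3.55), at a summed level of 331 CPM in G2/M-low cells against 3959 CPM in cycling cells. Nusap1, a microtubule binder of the spindle, had 5.92 CPM in G2/M-low cells and 262 CPM in cycling cells, Kif11, the spindle motor, 4.03 and 175 CPM, and Prc1, which bundles the central spindle, 10.2 and 297 CPM. The named genes by size were, after these, Kif15, Racgap1, H2ac24, Aurkb, Hmmr, Neil3 and H1f5, with log2 ratios of -3.97 to -4.14. Of the 286 lower genes, 58 stood on the cell cycle and histone lists.

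Most replication genes had lower values in G2/M-low cells. Of 28 S phase genes 8 were lower in G2/M-low cells (Mcm10, Ccne2, Rrm1, Rrm2, Tyms, Uhrf1, Cdc45 and Fen1), none was higher, and the median log2 ratio was -0.59. Of the 28 genes, 5 had a ratio of at least 1, namely Mcm3, Mcm4, Mcm6, Cdt1 and E2f1. The others, Cdc6 among them, had lower values in G2/M-low cells. Some genes of the licensing step, which loads the Mcm helicase onto origins before S phase, thus had levels in G2/M-low cells close to or above those of cycling cells. Mcm2 had 40.7 CPM in G2/M-low cells and 41.04 CPM in cycling cells, Mcm3 had 115 and 108 CPM, Mcm4 had 70.1 and 65.8 CPM, and the loader Cdt1 had 44.5 and 39.1 CPM. Mcm6 stood at 181 CPM in G2/M-low cells against 143 CPM in cycling cells, a ratio of 1.27 (1.20 to 1.35). The remaining helicase genes had lower values in G2/M-low cells without a call, Mcm5 with 32.8 against 49.3 CPM and Mcm7 with 157 against 229 CPM. The factor E2f1 had 38.3 CPM in G2/M-low cells and 36.1 CPM in cycling cells. Genes that make deoxynucleotides stood apart from these. Rrm2, a subunit of ribonucleotide reductase, had 28.5 CPM in G2/M-low cells against 151 CPM in cycling cells, and Tyms, thymidylate synthase, had 31.4 against 83.4 CPM. The cyclin gene Ccne2 had 51.4 CPM in G2/M-low cells and 110 CPM in cycling cells, and the related cyclin gene Ccne1 had 81.5 and 136 CPM. Replication-dependent histone genes, whose RNAs mostly lack the poly(A) tail this chemistry primes from and whose copies are near identical, were lower for 21 of the 23 measured, at a sum of 256 CPM in G2/M-low cells against 1985 CPM in cycling cells. H2bc4 was the only 1 of the 23 with a ratio above 1, at 36.9 CPM in G2/M-low cells and 17.4 CPM in cycling cells, below the size rule.

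The same cut in the myoblast culture gave a different picture for replication. In myoblasts 27 of the 28 S phase genes were lower in the 433 G2/M-low cells than in the 843 cycling cells, with a median log2 ratio of -1.79, where the MPC median was -0.59. The other G2/M genes (24 of 24 lower, median -3.17) and the histones (22 of 24 lower, median -1.78) were close to their MPC medians of -3.55 and -1.80. In all, 391 of 8976 genes were lower in G2/M-low myoblasts (4.36%) and 53 were higher (0.59%). The genes lower in both libraries numbered 238, which is 83.2% of the MPC list and 60.9% of the myoblast list, and 1 gene was higher in both. The same 5 G2/M genes parted the cells in both libraries, so the overlap of the lower genes describes the choice and is no finding. The limit of 1 G2/M UMI is stricter for deeper cells. G2/M-low myoblasts had a median of 20721 UMIs and G2/M-low MPC cells 9586, and the 5 counted genes summed to 18.4 and 44.1 CPM in them. The part of depth in the difference between the cultures was not tested. With 1 library each, the difference itself was not tested either.

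**Figure D2:**
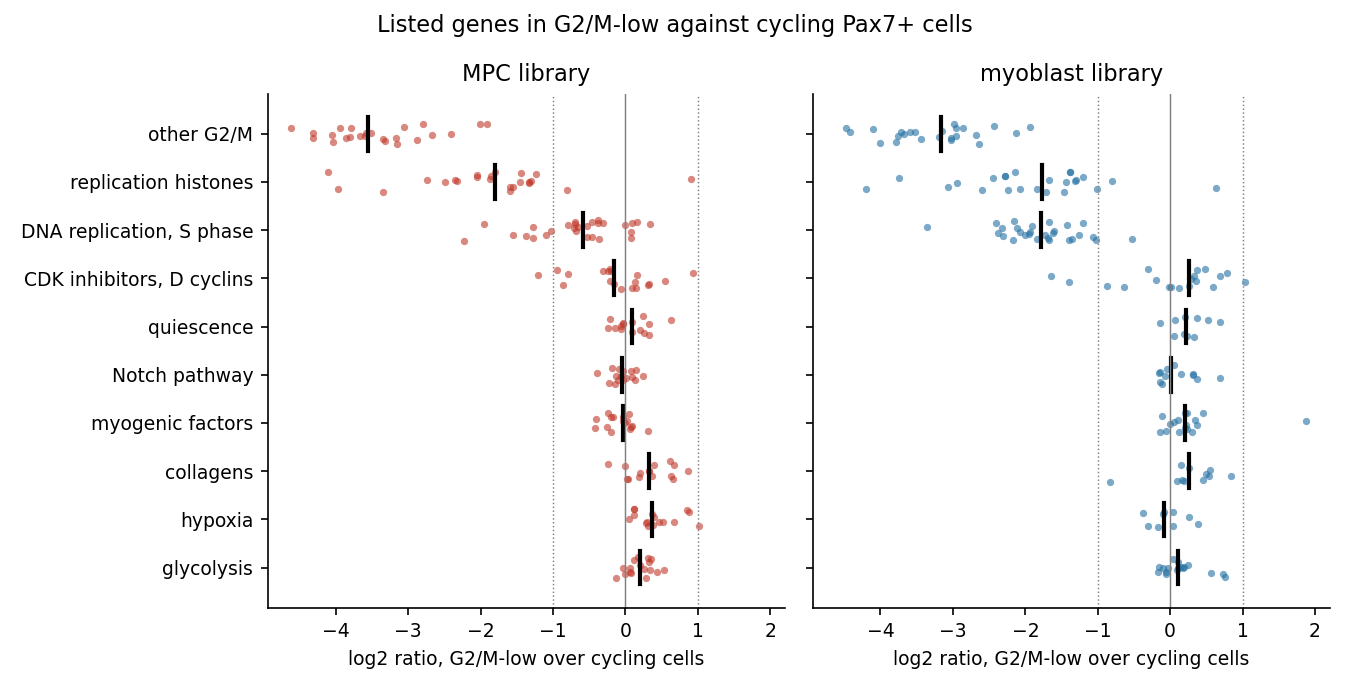
Each point is 1 measured gene of a list, placed by its log2 ratio of G2/M-low over cycling Pax7-positive cells (horizontal axis), in the MPC library (left) and the myoblast library (right), with a black bar at the list's median and dotted lines at a 2-fold ratio. The S phase list sits at a median of -0.59 in MPC and -1.79 in myoblasts, while the Notch list sits at -0.05 and 0.01.

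Promoter sequences are shown for 2 of the G2/M genes that the rule counted and for 2 helicase genes, because G2/M and S phase genes are known to be controlled through different sequence elements. The CHR element (TTTGAA), through which the DREAM and MuvB complexes act on G2/M genes, was searched on both strands in the 300 bases from 250 before to 50 after the start of each gene, from RefSeq on build GRCm38.p6, which is not the GRCm39 build of the counts. It was found in 18 of the 25 G2/M genes with a sequence (72.0% of the 25, out of 29 genes, the 5 of the rule included), in 3 of 24 S phase genes (12.5%) and in 5466 of all 27025 genes (20.2%). It was present in 116 of the 234 lower genes with a sequence (49.6%) and in 1032 of the 7222 measured genes with a sequence (14.3%). The cut on G2/M counts produced the lower genes, so their share describes the choice of cells and is no finding. E2F words (TTTCCCGC, TTTGGCGC, TTTCGCGC or TTTGCCGC) were found in 9 of 24 S phase genes (37.5%), in 1 of 25 G2/M genes and in 704 of all genes (2.61%). The word TGGGAA of the Notch effector RBPJ was in 4 of 19 Notch genes (21.1%) and 28.3% of all genes. A match describes letters only and shows no binding. In the sequences below, capitals mark the CHR element in Top2a (chr11:99024140-99024439, minus strand), which untangles DNA before mitosis, and in Cdk1 (chr10:69352863-69353162, minus strand), the mitotic kinase, and the E2F words, which overlap at 1 place in Mcm6, in the sequences of Mcm6 (chr1:128359656-128359955, minus strand) and Mcm3 (chr1:20820263-20820562, minus strand). Each reads 5′ to 3′ along its gene. Cdk1 is the 1 G2/M gene that also holds an E2F word, TTTCGCGC, which is left in lower case there.
Top2a: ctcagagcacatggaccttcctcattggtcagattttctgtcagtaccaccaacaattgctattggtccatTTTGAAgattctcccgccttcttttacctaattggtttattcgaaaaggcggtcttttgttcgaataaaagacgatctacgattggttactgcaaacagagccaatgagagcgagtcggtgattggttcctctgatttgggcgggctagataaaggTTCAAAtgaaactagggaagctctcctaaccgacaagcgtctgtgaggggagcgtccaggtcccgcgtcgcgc
Cdk1: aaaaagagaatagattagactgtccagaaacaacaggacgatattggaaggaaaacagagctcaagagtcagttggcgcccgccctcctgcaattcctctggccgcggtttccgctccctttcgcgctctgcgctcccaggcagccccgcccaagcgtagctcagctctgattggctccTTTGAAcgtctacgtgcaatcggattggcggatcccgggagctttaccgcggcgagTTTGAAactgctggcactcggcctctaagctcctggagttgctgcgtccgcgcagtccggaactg
Mcm6: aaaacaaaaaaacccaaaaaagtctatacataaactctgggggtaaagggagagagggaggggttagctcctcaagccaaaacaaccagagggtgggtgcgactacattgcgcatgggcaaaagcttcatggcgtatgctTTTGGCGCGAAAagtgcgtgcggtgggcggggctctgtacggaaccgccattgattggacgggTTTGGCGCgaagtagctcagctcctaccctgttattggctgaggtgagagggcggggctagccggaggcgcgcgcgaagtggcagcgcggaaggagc
Mcm3: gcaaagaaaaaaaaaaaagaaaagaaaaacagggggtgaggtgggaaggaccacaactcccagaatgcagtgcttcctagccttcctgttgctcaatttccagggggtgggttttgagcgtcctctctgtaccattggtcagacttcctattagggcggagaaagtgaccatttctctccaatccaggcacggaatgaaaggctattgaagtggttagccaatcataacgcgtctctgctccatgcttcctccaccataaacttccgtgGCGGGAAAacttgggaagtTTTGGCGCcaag
Top2a had 16.6 CPM in G2/M-low cells and 1324 CPM in cycling cells, and Cdk1 had 14.4 and 268 CPM in the same order, which the choice of cells fixed, so nothing is read from these levels beside those of Mcm6 and Mcm3.

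Across the whole range of G2/M counts, replication genes peaked between the extremes. In the bins of 0, 1, 2 to 4, 5 to 9 and 10 or more UMIs of the 5 genes, which held 446, 350, 417, 336 and 2077 cells, Mcm6 had 168, 198, 233, 236 and 133 CPM. Ccne2 had 43.9, 60.7, 98.6, 151 and 106 CPM over the same bins. Both were lower in cells with no G2/M transcript than in cells with a few, and lower again in cells with many. The other G2/M genes summed to 301, 369, 723, 1430 and 4235 CPM and the histones to 251, 262, 329, 621 and 2134 CPM, both higher in each bin than in the one before. Heyl showed no such order, with 90.4, 98.5, 83.0, 98.1 and 98.8 CPM. Cells of the bins differ in depth, with median totals of 9520.5, 9682.5, 10096, 10957 and 15246 UMIs, and the part of depth in these bins was not tested.

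**Figure D3:**
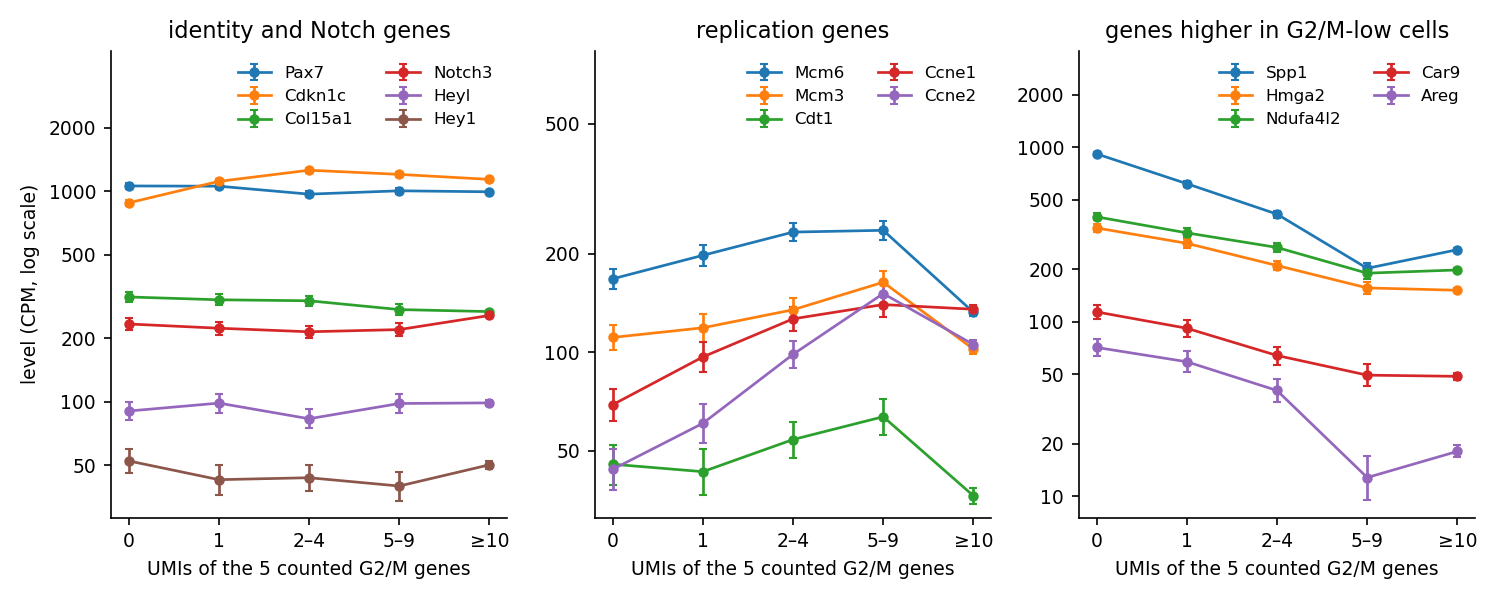
Levels (CPM, log axis) of identity and Notch genes, replication genes and genes higher in G2/M-low cells are plotted over 5 bins of the UMIs of the 5 counted G2/M genes (the first and second bins are the G2/M-low cells), with exact Poisson 95% intervals as bars. Heyl and Notch3 follow no steady order over the bins, and both are lowest in the bin of 2 to 4 UMIs (83.0 and 215 CPM) and highest in the bin of 10 or more (98.8 and 257 CPM). Mcm6 peaks at 236 CPM in the bin of 5 to 9 UMIs, and Spp1 is highest at 915 CPM in the bin of 0.

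Few genes were higher in G2/M-low cells. The 15 included 5 that met the naming limits of 50 CPM and a call in the same direction among cells of 8000 to 20000 UMIs. Areg, the EGF receptor ligand amphiregulin, had 65.8 CPM in G2/M-low cells and 17.6 CPM in cycling cells, 3.74-fold (3.33 to 4.20). Spp1, the secreted matrix protein osteopontin, had 782 and 253 CPM in the same order, 3.09-fold (2.99 to 3.19). Cp, the copper-binding ferroxidase ceruloplasmin, had 100.1 CPM in G2/M-low cells and 44.4 CPM in cycling cells, 2.25-fold (2.07 to 2.45). Kdm5b, a histone demethylase, had 78.8 against 36.2 CPM, 2.17-fold (1.98 to 2.39), and Hmga2, a chromatin protein of embryonic cells, had 316 against 152 CPM, 2.08-fold (1.99 to 2.18). The other 10, chosen for naming after their values were seen, were Car9, Kdm7a, Mxd4, Tafa2, Csmd1, Gsta4, Pde11a, Btc, 4921504E06Rik and Nlrp1a. Nlrp1a had 83 UMIs in G2/M-low cells, 3 in cycling cells and 0 CPM in the intermediate cells, and how many cells held them was not tested. Car9, the hypoxia-induced carbonic anhydrase, had 104 CPM in G2/M-low cells and 48.8 CPM in cycling cells.

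Spp1, Hmga2 and Areg were also high in the Crabp1 cells that the rule had left out. Those 491 cells had 2507 CPM of Spp1, 1471 of Hmga2, 229 of Areg, 213 of Pde11a and 128 of Tafa2, and 53.1 CPM of Cp, 69.2 of Kdm5b and 21.9 of Car9. The 12 fibroblast markers summed to 1075 CPM in G2/M-low cells, against 908 CPM in cycling cells and 9449 CPM in the Crabp1 cells, and their part in these genes was not tested beyond the settings below. Most of the sum in G2/M-low cells was Col3a1 at 611 CPM and Prrx1 at 390 CPM. None of the 12 was at 0, and the other 10 had 0.13 CPM (Dpt) to 31.6 CPM (Thy1) there, with Crabp1 at 18.1 against 10.6 CPM and Dcn at 5.4 against 3.8 CPM in cycling cells. Without the cells that held a UMI of Crabp1, Dcn, Lum, Pdgfra or Twist2, the log2 ratios of G2/M-low over cycling cells were 1.51 for Spp1, 1.56 for Areg, 1.08 for Cp, 1.03 for Kdm5b and 0.79 for Hmga2, so Hmga2 lost its call. Without the cells of at least 10 Spp1 UMIs among 5000 they were 0.28, 1.09, 1.14, 0.98 and 0.68 in that order, and 9 genes in all were called higher. Both sets were left out after the values were seen.

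Among the other lists most genes lay within 2-fold. None of 15 quiescence genes (median log2 ratio 0.09), 16 Notch genes (-0.05), 16 myogenic factors (-0.03), 14 imprinted growth genes (-0.09) or 17 early differentiation genes (0.25) was called. Over all genes 0.167% were called higher and 3.18% lower, so 0 calls in lists of this size is near the background. Of the kinase inhibitors and D cyclins 1 of 19, Cdkn2d, was lower. Cdkn1c, the imprinted inhibitor p57 that enforces cell cycle exit, had 986 CPM (964 to 1008) in G2/M-low cells, below the 1146 CPM (1135 to 1157) of cycling cells, and Gas1, a growth arrest gene, had 346 and 363 CPM. Cdkn1b (p27) had 69.3 CPM in G2/M-low cells and 61.3 CPM in cycling cells, and Cdkn1a (p21) had 149 and 140 CPM. All 16 hypoxia genes had a ratio above 1, with a median log2 ratio of 0.37, and 1 of them, Car9, was called higher. Ndufa4l2, a hypoxia-induced mitochondrial protein, had 365 CPM in G2/M-low cells and 197 CPM in cycling cells, and its level over the 5 bins was 399, 323, 266, 190 and 198 CPM. Collagens (15 measured, median 0.33), glycolysis genes (17, median 0.19) and immediate early genes (15, median 0.33) had no called gene. Set against the 417 intermediate cells, 7 of 8831 genes were higher in G2/M-low cells (0.0793%) and 43 were lower (0.487%).

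The G2/M-low cells varied among themselves along the S phase axis. They were parted into 251 cells with 0 to 4 S phase UMIs of 5000, 321 with 5 to 11 and 224 with 12 to 39, and the values of S phase genes in these parts only describe the cut. Near the cuts lay 66 cells with 4, 48 with 5, 42 with 11 and 31 with 12 UMIs. Cdkn1c had 535 CPM in the lowest part, 912 in the middle and 1544 in the highest. Dlk1, an imprinted Notch ligand-like protein, had 88.1, 171 and 246 CPM, and Gpc3, the proteoglycan glypican 3, had 452, 540 and 709 CPM. These 3 genes were thus higher where S phase transcripts were more frequent. Spp1 ran the other way with 1514, 658 and 217 CPM, and so did Hmga2 with 439, 314 and 194 CPM and Areg with 96.2, 69.0 and 30.5 CPM. Ccnd2, a D cyclin, had 144, 55.8 and 61.9 CPM. Pax7 had 1146, 1070 and 958 CPM, Heyl 80.5, 102 and 96.7 CPM and Notch3 227, 224 and 239 CPM. Histones summed to 266, 225 and 288 CPM. Of 8948 genes measured in the lowest and the highest part, 99 were higher in the lowest (1.11%) and 171 were lower (1.91%). The median totals of the parts were 8986, 9618 and 10174.5 UMIs.

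**Figure D4:**
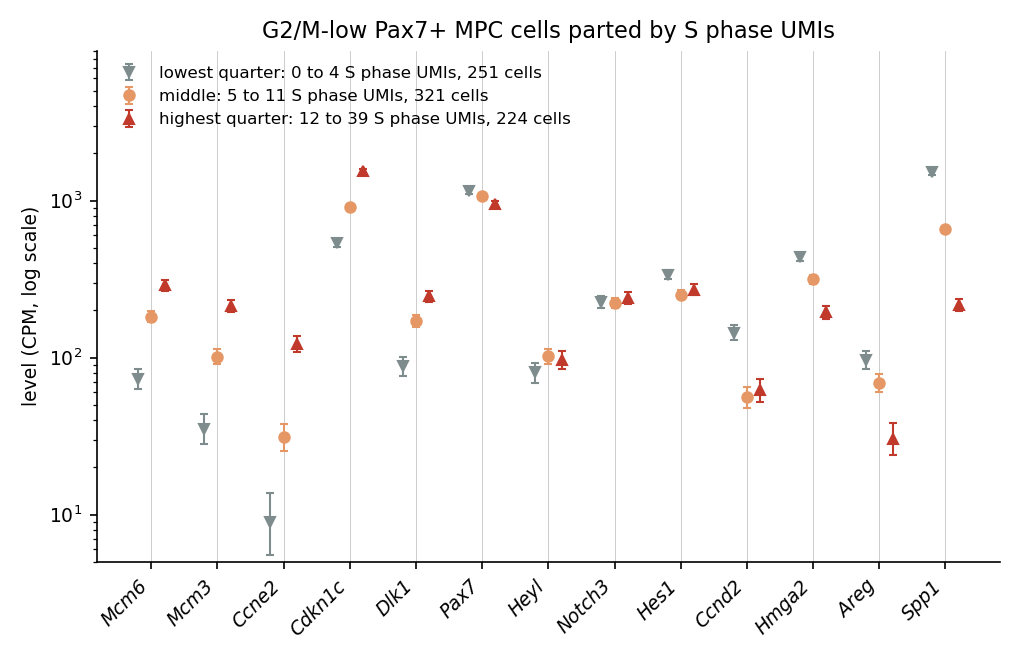
Levels (CPM, log axis) of 13 genes are given in G2/M-low Pax7-positive MPC cells parted by their S phase UMIs among 5000 (0 to 4, 5 to 11 and 12 to 39), with exact Poisson 95% intervals as bars. Cdkn1c and Dlk1 stand higher with more S phase UMIs, at up to 1544 and 246 CPM, Spp1, Areg and Hmga2 stand lower, and Heyl and Notch3 differ little.

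Clustering of the G2/M-low cells alone gave 5 clusters, of 216, 208, 184, 108 and 80 cells, which were left without cell type names. The cluster of 184 cells was led by Spp1, Prkcb, Areg, Cxcl14 and Hmga2, with Spp1 at 2705 CPM there and 60.6 to 186 CPM in the other 4. It had 233 cells at resolution 0.3 and 96 at 0.8, where Prkcb led it. Cdkn1c had 252 CPM in it and 605 to 1970 CPM in the others, Col6a1 314 CPM and 14.1 to 154 CPM, and its fibroblast markers summed to 1518 CPM, against 448 to 1219 CPM. The cluster of 80 cells was led by Cdkn2a, the locus of p16 and p19Arf, with Ano3, Galnt6 and Mdk, and it was about as large at the other resolutions, with 80 and 82 cells. In it Cdkn2a had 164 CPM and 1.4 to 9.5 CPM elsewhere, Ccnd2 337 CPM and 5.6 to 162 CPM, Pax7 1476 CPM and 828 to 1179 CPM, and Col15a1 69.2 CPM and 272 to 430 CPM. Its median was 4 S phase UMIs, the lowest of the 5, and the p53 targets Ccng1 and Cdkn1a stood at 102.5 and 271.5 CPM, against 21.9 to 32.8 CPM and 75.4 to 216 CPM elsewhere. The clusters of 216, 208 and 108 cells were led by Lrrc7, Plxdc1 and Nlrp1a. Nlrp1a had 77.1 CPM in the cluster of 108 cells and 0.29 CPM in the other G2/M-low cells. At resolution 0.8 it was instead among the leading genes of the Cdkn2a cluster of 82 cells, at 73.6 CPM against 3.36 CPM elsewhere. Its place thus changed with the resolution, and the number of cells that held its UMIs was not tested. In the myoblast culture, 74.6% of G2/M-low cells had a Cdkn2a UMI of 5000, against 7.79% of G2/M-low MPC cells and 8.29% of cycling MPC cells. In the MPC library it was also found in 34.9% of the Rgs5 cells that the rule had left out, 10.6% of Myog-positive cells and 2.24% of Crabp1 cells.

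Spp1 was also the gene with the most uneven counts. Among cells thinned to 5000 UMIs its variance was 67.6 times its mean, where the median over 1625 genes of at least 0.5 UMI per cell was 1.21. Next came Tmem196 (12.5), mt-Rnr2 (11.9), Ccdc85a (11.2), Bbs9 (10.2) and Cdkn1c (10.0), then Sema3e, Mapt, Mrpl45, Fth1, Hmga2, Acta1, Rora, Ube2v2 and Gm5624 with 5.94 to 8.86. At least 10 Spp1 UMIs of 5000 were found in 54 G2/M-low cells (6.78%, 5.14 to 8.76%), 75 cycling MPC cells (3.11%, 2.45 to 3.88%), 266 Crabp1 cells (54.2%), 415 G2/M-low myoblasts (95.8%) and 0 of 1364 G2/M-low fiSC, which by the exact interval allows up to 0.270%. Any Spp1 UMI was found in 34.3% of G2/M-low cells, against 27.2% of cycling cells and 16.8% of Myog-positive cells of the same library. Free RNA in the droplets can give such single UMIs, and its part was not tested. Calcr, the calcitonin receptor gene of quiescent satellite cells, had a UMI in 0% of the G2/M-low MPC cells, 0.1% of cycling MPC cells and 47.1% of G2/M-low fiSC at the same depth.

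Set against G2/M-low myoblasts, the G2/M-low MPC cells were higher in the Notch targets Heyl and Hey1 and in genes of the hypoxia, IGF and replication lists, and lower in most TGF-beta and p53 targets. Of 9319 measured genes 892 were higher (9.57%) and 921 were lower (9.88%), with a median log2 ratio of 0.00. Myoblasts were the deeper cells, with a median of 20721 UMIs, against 9586 UMIs in the MPC cells. Heyl had 94.0 CPM in G2/M-low MPC cells and 6.7 CPM in G2/M-low myoblasts, Hey1 had 48.0 and 1.8 CPM, Notch3 had 229 and 73.3 CPM and Notch1 had 155 and 37.1 CPM. Hes1 differed from them, with 283 CPM in MPC cells and 391.8 CPM in myoblasts, and Hes6, an antagonist of Hes1, had 33.3 and 196 CPM. Over the Notch list 6 of 16 genes were higher and 2 lower (median log2 ratio 0.65). Pax7, by which the rule chose both sets, had 1059 CPM in MPC cells and 1536 CPM in myoblasts, and EGFP had 82.3 and 225 CPM. The determination factor Myod1 had 35.5 CPM in MPC cells against 500.2 CPM in myoblasts, while its relative Myf5 had 73.8 against 24.0 CPM and the repressor Msc (MyoR) had 27.7 against 0.1 CPM.

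Cdkn1c led the named genes, with 986 CPM in G2/M-low MPC cells and 4.5 CPM in G2/M-low myoblasts, 218-fold (160 to 306). Within the MPC library Cdkn1c was highest in Myog-positive cells among these 3 sets. After thinning, its mean was 25.8 UMIs in Myog-positive cells, 4.96 in G2/M-low cells and 5.89 in cycling cells. A Cdkn1c UMI was found in 97.7, 74.2 and 84.5% of these cells in that order. The part of free RNA from Myog-positive cells in the Cdkn1c level of G2/M-low cells was not tested. Gpc3 had 564 CPM in G2/M-low MPC cells and 1.02 CPM in G2/M-low myoblasts, and Dlk1 had 168 and 0.45 CPM. Ndufa4l2 had 365 CPM in MPC cells and no UMI in myoblasts, which makes it at least 1077-fold higher against a floor of 3 UMIs over the set. The rule further named Col15a1, Pde3a, Ptn, Fat3, Rora and Capn6. Col15a1 had 311 CPM in MPC cells against 0.11 CPM in myoblasts, and Rora, an orphan nuclear receptor, had 1858 against 74.5 CPM. The 10 lowest were Mcpt8, Sct, Ankrd1, Chrna1, Gzme, Lingo2, Fgf13, Cdh18, Slc35f1 and Gm42674. Mcpt8, a mast cell protease gene, had no UMI in the MPC cells against 534 CPM in myoblasts, at least 1411-fold lower, and Ankrd1, a stress-responsive muscle ankyrin protein and TGF-beta target, had 36.7 against 2706 CPM. The acetylcholine receptor subunit gene Chrna1 had 7.1 CPM in MPC cells and 572 CPM in myoblasts.

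By list, all 16 hypoxia genes were higher in the G2/M-low MPC cells than in G2/M-low myoblasts (median log2 ratio 2.20), among them the glucose transporter Slc2a1 at 83.2 against 14.2 CPM and the angiogenic factor Vegfa at 155 against 37.6 CPM. Of 26 S phase genes 20 were higher and none lower (median 1.42), with Mcm6 at 181 against 37.3 CPM. The IGF system had 7 of 13 genes higher and none lower (median 1.33). Igf1r, the receptor, had 915 CPM in MPC cells and 265 CPM in myoblasts, the binding protein gene Igfbp5 had 1032 and 213 CPM, and the adaptor gene Grb10 had 759 and 67.0 CPM. Imprinted growth genes had 8 of 15 higher and 1, Ndn, lower (median 1.20), and 3 of these, Igf2, Igf2r and Grb10, stand on the IGF list too. Quiescence genes had 10 of 15 higher and 1, Vcam1, lower (median 1.75), with Heyl, Hey1, Notch1 and Notch3 on both this list and the Notch list. The other higher quiescence genes were counted on further lists too. Cdkn1c and Gas1 stand among the kinase inhibitors and D cyclins, Col5a1, Col5a3 and Col15a1 among the collagens, and Spry1 among FGF receptors and Sprouty genes. Cdkn1c is also an imprinted growth gene, as is Dlk1 of the Notch list, so the lists are not independent. Of 12 TGF-beta targets 10 were lower (median -1.97), such as Pmepa1 at 22.3 CPM in MPC cells against 253 CPM in myoblasts and Smad7, the inhibitory Smad, at 11.0 against 60.0 CPM, and 1, Bhlhe40, was higher. Of 14 p53 targets 11 were lower and 1 higher (median -1.36), with Cdkn1a at 149 against 381 CPM and Bax, the apoptosis effector, at 86.1 against 408 CPM. Kinase inhibitors and D cyclins went both ways, with 5 of 20 higher and 7 lower. Cdkn1b had 69.3 CPM in MPC cells and 11.1 CPM in myoblasts, Ccnd2 had 83.8 and 1311 CPM, and Cdkn2a had 21.3 and 309 CPM. Spp1 and Hmga2, higher in G2/M-low than in cycling MPC cells, were here lower, at 782 against 12304 CPM and 316 against 1892 CPM. Wnt targets, measured for 6 genes, had 3 higher, Nkd1, Znrf3 and Lgr5, and 2 lower, Lef1 and Ccnd1.

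Set against G2/M-low fiSC, the sorted cells of uninjured muscle, the G2/M-low MPC cells had Heyl and Hey1 within 2-fold. They had higher levels of genes of replication and energy metabolism and lower levels of immediate early genes. Of 9397 measured genes 2437 were higher (25.9%) and 1539 were lower (16.4%), with a median log2 ratio of 0.32. TMM factors shifted the scaling of the sets by -0.40 on the log2 scale, which moves a ratio by up to that much with the pseudocount, and gave 1547 higher and 2174 lower genes, so the balance of the directions depends on the scaling. The values below are before this shift unless TMM is named. The median cell held 9586 UMIs in the MPC set and 10018.5 in the fiSC set. Pax7, by which the rule chose both sets, had 1059 CPM in MPC cells and 1037 CPM in fiSC, so this likeness is no finding. Its log2 ratio of 0.03 became -0.37 with TMM. Hey1 had 48.0 and 46.5 CPM, with log2 ratios of 0.04 and, under TMM, -0.32. Heyl had 94.0 CPM in MPC cells and 68.2 CPM in fiSC, and Notch3 had 229 and 138 CPM. Over the Notch list 5 of 16 genes were higher and 3 lower, and the median of 0.15 turned to -0.22 under TMM. Of 18 quiescence genes 4 were higher (Hes1, Notch1, Cdkn1c and Col15a1) and 6 were lower. Cdkn1c had 986 CPM in MPC cells and 34.1 CPM in fiSC. The lower genes were Calcr at 0.38 CPM in MPC cells against 452 CPM in fiSC, Vcam1 at 26.3 against 598 CPM, Sdc4 at 180 against 2731 CPM, the FGF signalling inhibitor Spry1 at 44.4 against 215 CPM, Cd34 at 0.25 against 63.1 CPM and Chrdl2 at 0.13 against 187 CPM. Myf5, Myod1 and Msc were among 7 of 18 myogenic factors that were lower, at 73.8 against 429, 35.5 against 390 and 27.7 against 379 CPM, while Mef2c and Tcf12 were higher.

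The 10 highest named genes against fiSC were Spp1, Mgp, Gpc3, Edil3, Ndufa4l2, Basp1, Fabp5, Sema3a, Orc2 and Pde1a. Mgp, the calcification inhibitor matrix Gla protein, had 1446 CPM in MPC cells and 7.7 CPM in fiSC, 189-fold (157 to 230), and Gpc3 had 564 and 2.00 CPM. The 10 lowest were Hspa1a, Hspa1b, Hspb1, Tnfaip6, Dnajb1, Pim1, Cxcl1, Hmcn2, Calcr and Erfe. Hspb1, a small heat shock protein gene, had 58.6 CPM in MPC cells and 7797 CPM in fiSC, and Hspa1a, whose coding sequence is nearly that of Hspa1b, had 1.01 and 6266 CPM. All 18 immediate early genes were lower (median log2 ratio -3.05), with Fos at 132 CPM in MPC cells against 2393 CPM in fiSC and Egr1 at 512 against 4386 CPM. The fiSC had been dissociated from muscle and sorted and the cultures had not been sorted, which cannot be told apart from the groups. Of 14 cAMP/CREB targets 11 were lower and none higher (median -1.96), and 2 of these, Fos and Fosb, stand on the immediate early list too. Of 12 TGF-beta targets 10 were lower (median -2.91) and 1, Acta2, was higher.

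Higher as groups against fiSC were S phase genes (21 of 26, none lower, median 2.30), glycolysis genes (13 of 17, none lower, median 2.49), oxidative phosphorylation genes (12 of 16, none lower, median 1.44) and imprinted growth genes (10 of 14, none lower, median 1.55). Ldha, lactate dehydrogenase, had 981 CPM in MPC cells and 130 CPM in fiSC. Early differentiation genes had 16 of 18 higher and 2 lower (median 2.66), with the fast myosin light chain gene Mylpf at 183 against 3.0 CPM. In the MPC library Mylpf had 110 CPM in cycling cells and 1979 CPM in Myog-positive cells, and the part of free RNA from the Myog-positive cells in the levels of the G2/M-low cells was not tested. Hypoxia genes had 10 of 16 higher and 1, Ndrg1, lower (median 1.85). In the IGF system 9 of 14 were higher and 2, Igf1 and Irs2, lower (median 1.43). Of 31 matrix genes 16 were higher and 6 lower, with fibronectin (Fn1) at 251 CPM in MPC cells against 10.2 CPM in fiSC. The 12 markers of differentiating myocytes summed to 786 CPM in the G2/M-low MPC cells, against 46.4 CPM in the G2/M-low fiSC, 637 CPM in cycling MPC cells and 12405 CPM in Myog-positive MPC cells.

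**Figure D5:**
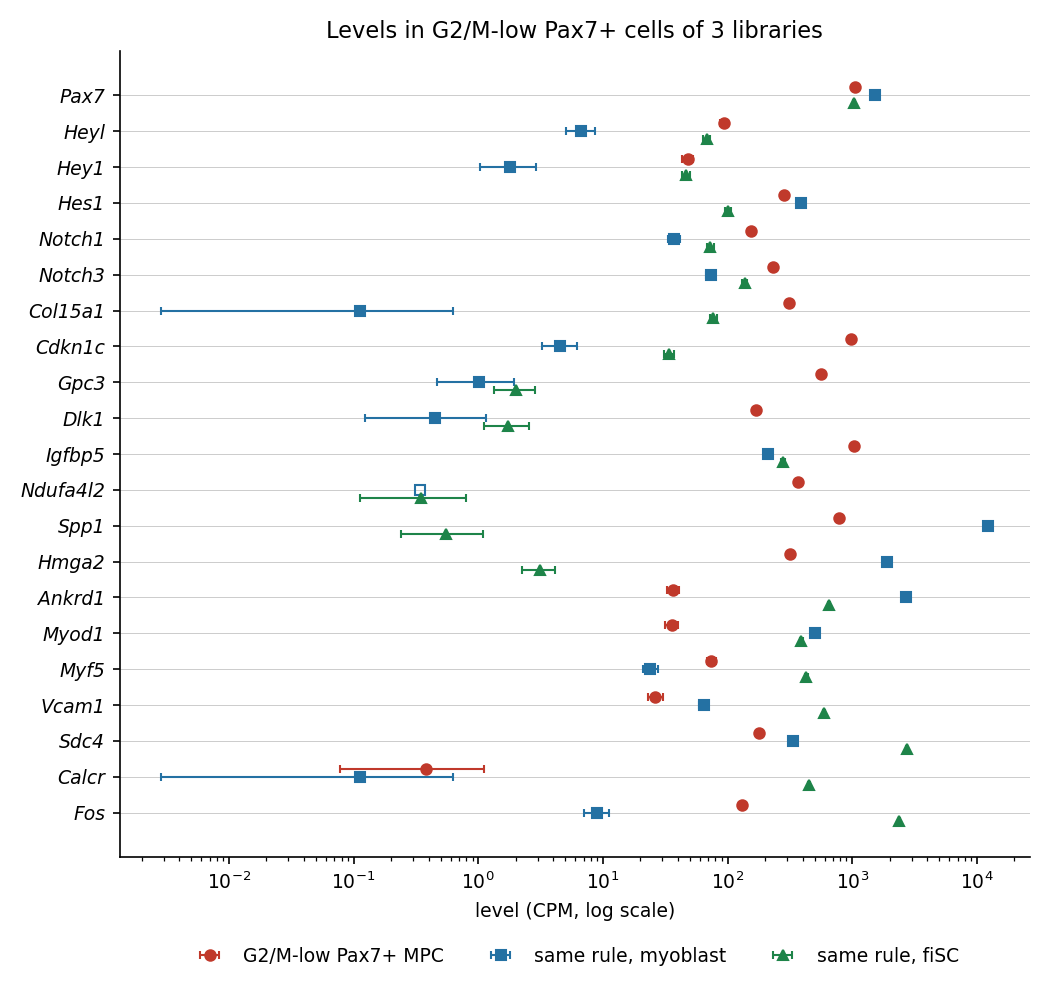
Levels (CPM, log axis) of 21 genes are given in G2/M-low Pax7-positive cells of the MPC, myoblast and fiSC libraries, with exact Poisson 95% intervals as bars and an open symbol at the 3-UMI floor where a gene had no UMI. Heyl and Hey1 stand near their fiSC level in MPC cells and far lower in myoblasts, Cdkn1c, Gpc3 and Dlk1 are highest in MPC cells, and Calcr, Vcam1 and Sdc4 are highest in fiSC.

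The ASC library held 52 cells of the rule, of which 0 had 12 or more S phase UMIs (up to 6.85%). These cells had 755 CPM of the macrophage gene Lyz2 and 1570 CPM of 10 macrophage markers, against 0 and 8.07 CPM in the G2/M-low MPC cells, so their myogenic levels are given as values only. Heyl had 94.0 CPM in MPC cells and 57.9 CPM in these ASC, Pax7 1059 and 545 CPM, and Cdkn1c 986 and 420 CPM. Against them 1087 of 9503 genes were higher (11.4%) and 1080 lower (11.4%).

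Marker lists of other cell types differed in their sums in the G2/M-low MPC cells. The fibroblast list had 1075 CPM, against 908 CPM in cycling MPC cells, 449.6 CPM in G2/M-low myoblasts and 692 CPM in G2/M-low fiSC. Endothelial markers summed to 20.8 CPM, Schwann markers to 12.6 CPM, tenocyte markers to 16.1 CPM, and 6 of 10 macrophage markers had no UMI. The mural list reached 581 CPM, against 640 CPM in cycling cells, 438 CPM in G2/M-low myoblasts and 265 CPM in G2/M-low fiSC. It holds Notch3 and Acta2, which the G2/M-low MPC cells express at 229 and 206 CPM, while Rgs5, whose high cells the rule left out, was at 0.1 CPM. Rgs5 and Crabp1 cells were left out in the MPC library only, so the mural and fibroblast sums of the libraries come from sets chosen differently. The adipocyte list reached 171 CPM, of which lipoprotein lipase (Lpl) gave 168 CPM. The 14 myogenic progenitor markers, which include the Pax7 that the rule used, summed to 2801 CPM in G2/M-low cells and 2746 CPM in cycling MPC cells. Their sum was 3558 CPM in G2/M-low myoblasts and 7162 CPM in G2/M-low fiSC. At 5000 UMIs per cell, a Heyl UMI was found in 35.1% of G2/M-low MPC cells, 35.4% of cycling MPC cells, 3.00% of G2/M-low myoblasts, 23.5% of G2/M-low fiSC and 10.3% of Myog-positive MPC cells. For Notch3 the shares were 61.8, 66.0, 26.3, 45.9 and 15.8% in the same order, and for Col15a1 they were 68.0, 63.9, 0.0, 24.6 and 32.7%.

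Over 10 sets of cells defined by rule in the 4 libraries, the genes whose log CPM followed Heyl most closely were Tshz3 (Pearson r 0.995), Rora (0.989), Igsf3 (0.988), Scmh1 (0.986) and Olfml2a (0.981), out of 5737 genes. Sets of 1 library share its depth and composition, so these are descriptions. Tshz3 had 385 CPM in G2/M-low MPC cells, 361 CPM in cycling MPC cells, 84.8 CPM in G2/M-low myoblasts and 326 CPM in G2/M-low fiSC.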

How the data were processed

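Single-cell RNA was captured with droplet 3′ chemistry in 4 libraries, 1 per group. The deposited files hold raw, unscaled UMI counts for each gene and barcode. Alignment was to GRCm39 with STAR 2.7.10b, per the submitters' processing notes. The collapsing of UMIs and the calling of barcodes are not given in the sources used here. The files list 25828 features under 25804 symbols, and the 22 symbols on several features were summed.

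The members, the gene lists and the comparisons were chosen with earlier results of these data known. UMIs were summed over the cells of a set and scaled to CPM in Python 3.11.15 (numpy 2.4.6, scipy 1.17.1, pandas 2.3.3). Ratios used a pseudocount of 5 CPM, and calls needed 2-fold and 10 CPM in the higher set. The 24 lists were counted by these calls, without a set test, and the list of replication-dependent histones was added after the data were seen. With 1 library per group no p-value was computed, since cells are not replicates. Named genes were, per comparison, up to 10 genes of highest and 10 of lowest log2 ratio, taken from those that reached 50 CPM in the higher set and were also called among cells of 8000 to 20000 UMIs, the 5 counted genes left out. Also named were the listed markers, genes that illustrate a list and the 15 genes of highest variance over mean. Sums have exact Poisson and shares exact Clopper-Pearson intervals at 95%, and the floor was 3 UMIs. Shares per cell were taken after thinning to 5000 UMIs. Clustering used scanpy 1.11.5 and igraph 0.11.9 (1500 variable features, 20 components, 15 neighbours, resolution 0.5). Doublets were kept and removed in an alternative with Scrublet in scanpy, at an expected 0.8% per 1000 cells, which took 1 member and 111 cycling MPC cells. TMM factors, an alternative, came from edgeR 4.0.16. The summing and thinning steps were tested on simulated counts. Promoter sequences are RefSeq's on GRCm38.p6. Figures were drawn with matplotlib 3.10.9.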

Additional observations from a re-analysis of the deposited data

How the results depend on the processing

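The share of kept MPC cells that met the rule, 8.51% as reported, was 9.31% among cells of 8000 to 20000 UMIs, 4.77% with no UMI of the 5 genes allowed, 7.40% with the G2/M rule on thinned counts and 7.22% with at least 5 Pax7 UMIs. It was 10.2% with the Rgs5 and Crabp1 cells kept and 10.2% with at most 5% mitochondrial UMIs. Without doublets it was 9.19%, and without cells with a fibroblast marker UMI 9.21%. The last setting and the one without high Spp1 cells were added after seeing the data. Against cycling MPC cells, the 15 higher genes became 7 at a minimum of 50 CPM, 35 with a pseudocount of 1 CPM, 35 among cells of 8000 to 20000 UMIs, 37 with no UMI of the 5 genes and 9 without high Spp1 cells, and the 286 lower genes became 159 at 50 CPM. Against myoblasts, 50 CPM gave 439 higher and 501 lower genes in place of 892 and 921, and leaving out high Spp1 cells gave 1587 higher genes but left 19 myoblasts. Against fiSC, the 2437 higher genes became 1547 with TMM factors and 1062 at 50 CPM. A stricter minimum tests fewer genes; the cause of the other moves was not tested. Over the 12 planned and 2 added alternatives, 1011 values of single genes stayed within their counting interval and 193 left it. Some list medians (log2 ratios) changed sign. Wnt targets went to -0.69 against myoblasts with no UMI of the 5 genes, in place of 0.87, and to -0.16 against fiSC with TMM, in place of 1.09. Other G2/M genes against myoblasts had 0.28 and, without high Spp1 cells, -0.54, and early differentiation genes 0.03 and, at 50 CPM, -0.67. Heyl and Hey1 against cycling cells changed sign near a ratio of 1, and Gpc3 against cycling cells was 0.03 and, with no UMI of the 5 genes, -0.09. No paired analysis was possible because each group was 1 library. Depth limits the classes too, as G2/M-low cells had a median of 9586 UMIs and cycling cells 14536.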
